A study of Mus musculus with 94 samples.

Results

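Positional factor genes, which are the *Hox*, *Meis*, *Pbx*, *Tbx* and *Gata* transcription factor genes, were followed in single primary perivascular adipose tissue-derived stem cells (PV-ADSCs). Members were taken by gene symbol from the deposited table, where the symbol consists of *Hox*, a cluster letter from a to d and a number, or of *Tbx*, *Meis*, *Pbx* or *Gata* and a number. This rule matched 25 of 16069 genes, of which 24 are described. These were 13 *Hox*, 3 *Meis*, 2 *Pbx*, 4 *Tbx* and 2 *Gata* genes. The fat surrounded the thoracic aorta of c57/bl mice aged 8 weeks, and stromal vascular cells that were CD144-/CD45-/CD29+/Sca1+ were sorted from it and sequenced without culture, as 1 full-length cDNA library per cell. All libraries belonged to this single group, and of the 94 cells described, the 85 in the table were used and the other 9 were not analysed here. The study's methods name the strain C57BL/6J and state that fat of several mice was pooled for primary culture, and whether it was pooled for the sequenced cells is not given in the sources used here. As no animal was named for any cell, the cells counted as 1 sample, and shares of cells and levels are given without tests. Since fat of a single region was sampled, the data cannot show that a gene marks the thoracic region against other regions.

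*Hox* genes code for homeodomain transcription factors and lie in clusters a to d. Genes with the same number in different clusters are paralogues, and their order along a cluster mirrors the order in which they are used along the body axis of the embryo, with low numbers toward the head. Meis and Pbx proteins are homeodomain proteins of the TALE class, which bind DNA together with Hox proteins. T-box (Tbx) and zinc finger Gata factors also take part in dividing the embryo into regions and organs, and fibroblasts and fat depots of the adult are known to keep regional patterns of such genes.

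*Hoxa5* was the *Hox* gene found in most cells, and its homeobox, the part of the gene that codes for the DNA-binding homeodomain, is shown as the stretch that *Hox* genes have most in common. It was read from the GENCODE transcript as a run of 180 bases, lies in exon 2 of 2, and is given 5′ to 3′ on the strand of the gene with GRCm38 coordinates. Capitals mark 15 bases of the DNA recognition helix, by whose conserved code the homeobox was found.
Hoxa5, chr6:52202632-52202811, minus strand: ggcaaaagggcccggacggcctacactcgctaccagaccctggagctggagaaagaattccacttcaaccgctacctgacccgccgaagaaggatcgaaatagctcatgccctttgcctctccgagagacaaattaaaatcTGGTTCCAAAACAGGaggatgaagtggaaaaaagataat
Between the transcripts of any pair of the 13 *Hox* genes, the longest identical run was 47 bases, shared by *Hoxa7* and *Hoxb4*. The read length is not given in the sources used here, so it is not known whether reads could have been shared between paralogues over such runs.

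The cells were divided at a deposited value of 1000 for *Dcn*, which codes for the matrix proteoglycan decorin, into 58 *Dcn*-high stromal cells and 27 other cells. The lowest value inside the stromal set was 6521 and the highest outside it was 269. All 10 stromal markers had data, and at least 3 of them reached 100 recovered reads in 57 stromal cells and in 0 other cells. *Dcn*, which set the division, is one of the 10, so these values are not independent of it. Of the 10, 8 were found in a larger share of stromal cells and 0 in a larger share of other cells. Their summed level was 89.8 to 141829 CPM in stromal cells and 7.55 to 165 CPM in other cells, in which *Pdgfrb*, *Col1a1* and *Clec3b* were at 0. CPM scales the recovered reads of every cell to the same total. At least 3 of 13 endothelial markers reached that level in 24 other cells and in 1 stromal cell, and all 13 were found in a larger share of other cells. Their summed level was 0 to 14184 CPM (median, 1.58) in stromal cells, in which *Tie1* and *Erg* were at 0, and 0 to 14814 CPM (median, 9254) in other cells. *Cdh5*, the gene of CD144, for which the sort was negative, was above 0 in 23 other and 7 stromal cells. The stromal cells held 2813 genes above 0 at the median (range, 850 to 4148) and the other cells 1416 (range, 285 to 2278), whereas the median number of recovered reads per cell was 2963854 in stromal cells and 2714449 in other cells. Because the other cells had fewer genes of any kind above 0, the counts of genes called in the comparison of the sets are given with the share of all genes tested that were called. A single cell was stromal by its *Dcn* value of 6521 but held only 69 recovered *Dcn* reads and 850 genes, and none of the 24 genes was above 0 in it.

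Of the 24 genes, 5 were above 0 in at least 10% of all cells. *Meis2* was found in 24 cells (28.2%), *Gata6* in 18 (21.2%), *Hoxa5* in 16 (18.8%), *Meis1* in 13 (15.3%) and *Hoxb5* in 10 (11.8%). Neighbors in this order had overlapping 95% intervals, so the order of adjacent genes was not resolved with 85 cells. At least 1 of the 24 genes was above 0 in 50 of 58 stromal cells, with a median of 2 and a maximum of 6 genes per cell. In the other cells, at least 1 was above 0 in 15 of 27, with a median of 1 and a maximum of 3.

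**Figure D1:**
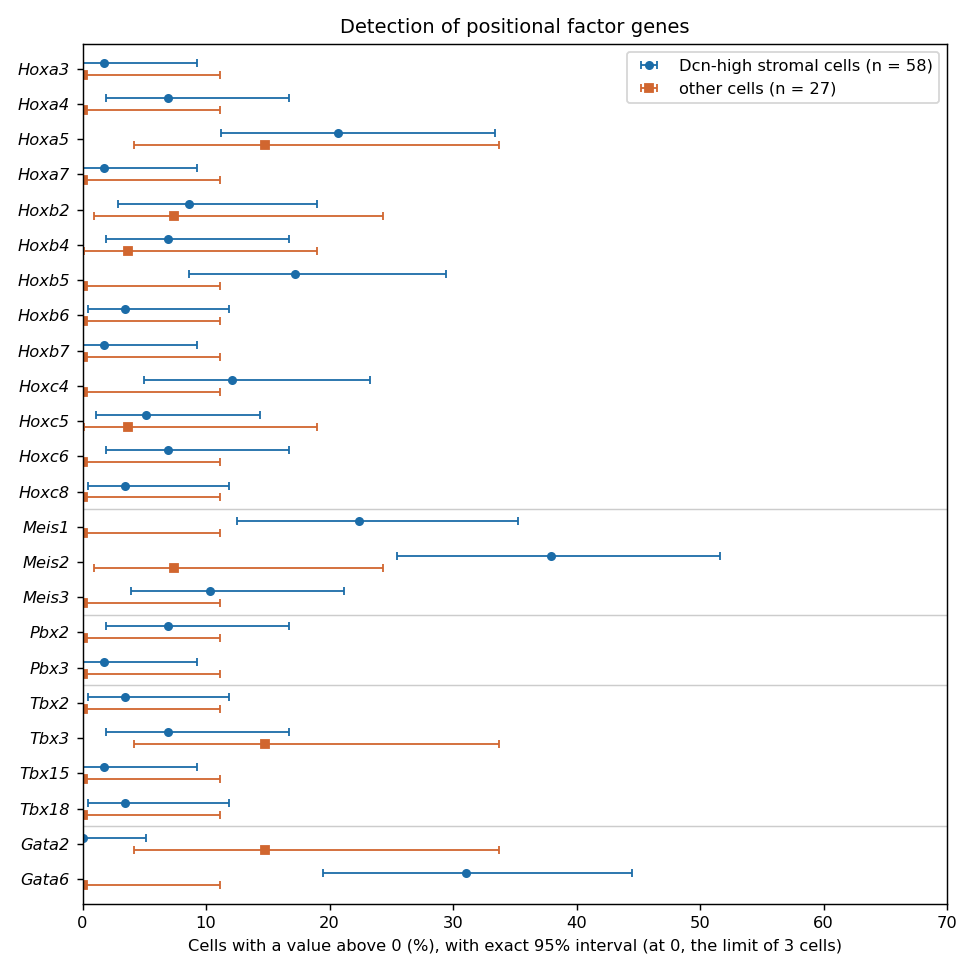
Percentage of *Dcn*-high stromal cells (blue circles, n = 58) and other cells (orange squares, n = 27) with a value above 0 for each of the 24 genes, with exact 95% intervals and bars at 0 drawn to the limit set by 3 cells. *Meis2* and *Gata6* have stromal intervals that lie above the exact intervals of the other cells, whereas *Gata2* was found in other cells only. The stromal interval of *Meis1* (from 12.5%) lies above the bar drawn for the other cells (11.1%) but not above their exact limit (12.8%).

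*Hox* transcripts were common in the stromal cells but thinly spread over genes. At least 1 *Hox* gene was above 0 in 36 of 58 stromal cells (62.1%; 95% interval, 48.4% to 74.5%) and in 8 of 27 other cells (29.6%; 13.8% to 50.2%). Intervals are exact Clopper-Pearson intervals and cover counting error only. When at least 10 recovered reads were asked for, 32 stromal and 5 other cells were left, and with at least 100 reads, 28 stromal and 4 other cells. Among stromal cells, 22 held 0, 21 held 1, 11 held 2, 3 held 3 and 1 held 4 *Hox* genes above 0. Thus 15 stromal cells (25.9%; 15.3% to 39%) held at least 2, compared with 0 of 27 other cells. This count of 0 allows a share of up to 11.1% when the limit is set at 3 cells (exact limit, 12.8%). Stromal cells with 0, 1 and at least 2 *Hox* genes had medians of 2742, 2812 and 2971 genes above 0 of any kind. Other cells with 0 and 1 *Hox* genes had medians of 1183 and 1575. Between the sets, the medians were 2813 in all stromal and 1416 in all other cells. The part of these differences in the *Hox* counts was not tested.

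The *Hox* genes covered paralogue numbers 2 to 8 in clusters a, b and c, while paralogues of other numbers and the *Hoxd* genes were not analysed here. A gene of paralogue number 5 was above 0 in 22 stromal cells (37.9%; 25.5% to 51.6%), and a gene of number 4 in 13 (22.4%; 12.5% to 35.3%). Number 6 followed with 6 stromal cells (10.3%; 3.89% to 21.2%) and number 2 with 5 (8.62%; 2.86% to 19%). Numbers 7 and 8 were found in 2 stromal cells each, and number 3 in 1. Numbers 4 and 5 were each represented by 3 genes, 6 and 7 by 2, and 2, 3 and 8 by a single gene, so that the shares do not rest on equal numbers of genes. In all, 32 stromal cells held a gene of numbers 4 to 6, 5 held one of numbers 2 or 3, and 4 held one of numbers 7 or 8. In the other cells, number 5 was found in 5 cells (18.5%; 6.30% to 38.1%), number 2 in 2 and number 4 in 1. By cluster, any *Hoxb* gene was above 0 in 20 stromal cells (34.5%; 22.5% to 48.1%), any *Hoxa* gene in 15 (25.9%; 15.3% to 39%) and any *Hoxc* gene in 11 (19%; 9.87% to 31.4%), and these intervals overlap.

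**Figure D2:**
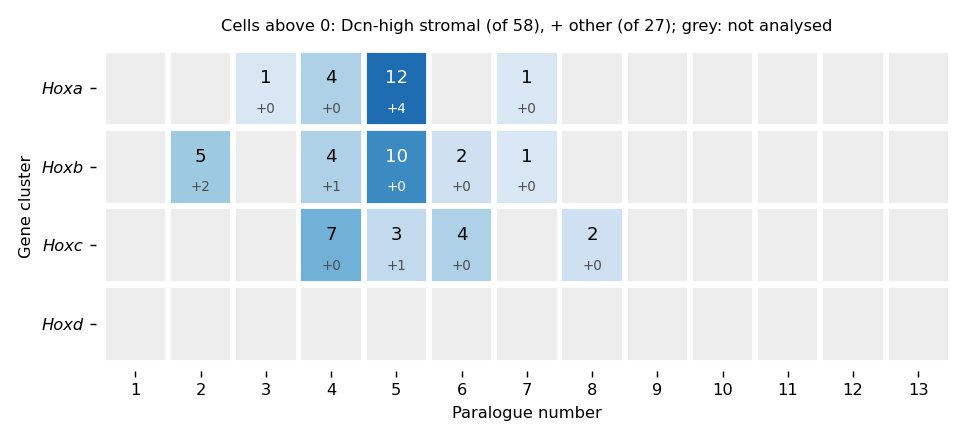
Number of *Dcn*-high stromal cells (large figures and shading, of 58) and other cells (small figures after a plus sign, of 27) with a value above 0 for each *Hox* gene, by cluster (rows) and paralogue number (columns). Grey fields were not analysed. The counts are highest at *Hoxa5* (12 stromal and 4 other cells) and *Hoxb5* (10 stromal cells).

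*Hoxa5*, which is known from the development of the lung and the neck and upper chest skeleton, was the *Hox* gene found most often, in 12 stromal cells (20.7%; 11.2% to 33.4%) and 4 other cells (14.8%; 4.19% to 33.7%). In the stromal cells above 0 it held 106 recovered reads at the lowest, 612 at the median and 2164 at the highest, and in the other cells it held 9, 53, 2246 and 5255. Every stromal cell with *Hoxa5* thus held over 100 reads, and the reads of the stromal and other cells overlapped. The mean log2(value + 1) was 1.88 ± 3.75 (SD over 58 cells) in stromal and 1.20 ± 3.28 (SD over 27 cells) in other cells, and no difference of shares was detectable at this number of cells. All 4 other cells with *Hoxa5* held at least 3 endothelial markers at 100 reads, as did 24 of all 27 other cells.

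*Hoxb5*, the paralogue of *Hoxa5* in cluster b, was found in 10 stromal cells (17.2%; 8.59% to 29.4%). It was found in 0 of 27 other cells, which allows up to 11.1% (exact limit, 12.8%). The recovered reads of *Hoxb5* in those 10 cells were 3 at the lowest, 349.5 at the median and 1668 at the highest. Unlike *Hoxa5*, it thus had some stromal cells with only a few reads. The mean log2(value + 1) was higher in stromal cells by 1.20. *Hoxc5*, the paralogue in cluster c, was found in 3 stromal cells with 2, 2 and 1733 reads and in 1 other cell with 4 reads. Only 3 of the 22 stromal cells with a gene of number 5 held more than 1 of them. These were a cell with 419 reads of *Hoxa5* and 94 of *Hoxb5*, a cell with 504 of *Hoxa5* and 605 of *Hoxb5*, and a cell with 1080 of *Hoxb5* and 1733 of *Hoxc5*.

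*Hoxc4* was found in 7 stromal cells (12.1%; 4.99% to 23.3%) and in 0 other cells, and its reads were 107, 111, 112, 131, 187, 254 and 391. These values were close together, as all lay over 100 and below 400 reads. Its paralogue *Hoxa4* was found in 4 stromal cells with 119, 199, 368 and 2174 reads. *Hoxb4*, the paralogue in cluster b, was found in 4 stromal cells with 20, 24, 45 and 81 reads and in 1 other cell with 103 reads. Only 2 stromal cells held more than 1 of these 3 genes. In order of number, *Hoxb2*, which is known from the hindbrain, was found in 5 stromal cells with 2, 2, 9, 11 and 68 reads and in 2 other cells with 1 and 1275 reads. *Hoxa3*, which is known from the pharyngeal arches and thymus, was above 0 in a single stromal cell, with 2947 reads. Of the genes of numbers 6 to 8, *Hoxc6* was found in 4 stromal cells with 4, 66, 100 and 1018 reads, *Hoxb6* in 2 with 203 and 281, and *Hoxc8* in 2 with 3 and 894. *Hoxa7* with 37 reads and *Hoxb7* with 607 reads were each above 0 in 1 stromal cell. All 5 genes of numbers 6 to 8 were thus at 0 in the other cells. So were 29% of all genes above 0 in at least 3 cells, and of these 5 genes only *Hoxc6* was above 0 in that many.

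Where a stromal cell held more than 1 *Hox* gene, these came from a single cluster or from several. Of the 15 stromal cells with at least 2, 6 held genes of 1 cluster and 9 held genes of more than 1 cluster. The cell with 4 *Hox* genes was the only one with clusters a, b and c, and it held 119 reads of *Hoxa4*, 20 of *Hoxb5*, 391 of *Hoxc4* and 4 of *Hoxc6*. Among the 3 cells with 3 *Hox* genes, one held 2947 reads of *Hoxa3*, 570 of *Hoxa5* and 2 of *Hoxb2*. Another held 269 of *Hoxa5*, 37 of *Hoxa7* and 11 of *Hoxb2*, and the last held 504 of *Hoxa5*, 20 of *Hoxb4* and 605 of *Hoxb5*. *Hoxa4* and *Hoxa5*, which are neighbors in cluster a, were found together in 1 cell, at 2174 and 2164 reads.

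The *Meis* genes code for TALE partners of Hox proteins, and *Meis2* was found in more cells than any single *Hox* gene. *Meis2* was above 0 in 22 stromal cells (37.9%; 25.5% to 51.6%), with 6 reads at the lowest, 182.5 at the median and 1028 at the highest. It was above 0 in 2 other cells (7.41%; 0.91% to 24.3%), with 2 and 4 reads, so all other cells with *Meis2* lay below the lowest stromal cell above 0. The mean log2(value + 1) was 2.64 ± 3.72 (SD over 58 cells) in stromal and 0.15 ± 0.56 (SD over 27 cells) in other cells, a difference of 2.49. *Meis1* was found in 13 stromal cells (22.4%; 12.5% to 35.3%) with between 98 and 704 reads and a median of 316. It was found in 0 of 27 other cells, which allows up to 11.1% (exact limit, 12.8%), so the exact intervals of both sets overlap. The mean log2(value + 1) was 1.89 ± 3.56 (SD over 58 cells) in stromal cells. *Meis3* was found in 6 stromal cells with 1, 5, 166, 224, 257 and 450 reads (10.3%; 3.89% to 21.2%) and in 0 other cells. Any *Meis* gene was above 0 in 31 stromal cells (53.4%; 39.9% to 66.7%) and in 2 other cells (7.41%; 0.91% to 24.3%), and 8 stromal cells held at least 2 *Meis* genes. Of the *Pbx* genes, which code for further TALE partners, *Pbx2* was found in 4 stromal cells with 33, 58, 111 and 290 reads and *Pbx3* in 1 with 216 reads, and neither was found in other cells.

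**Figure D3:**
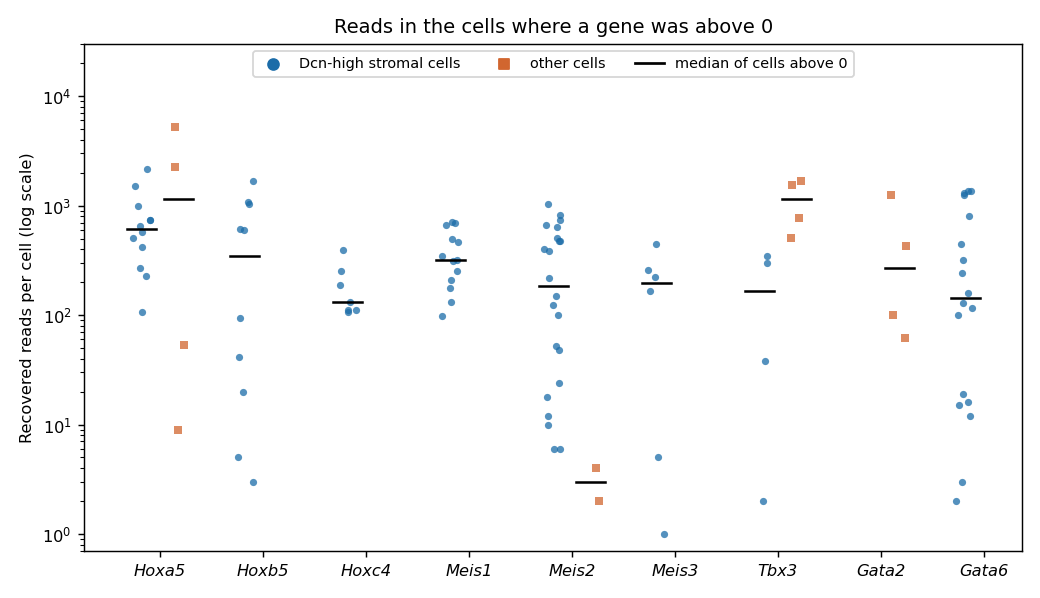
Recovered reads per cell (log scale) of the 9 genes above 0 in at least 10% of stromal or of other cells, each point being a cell with a value above 0 and each black line the median of those cells. Stromal *Hoxa5*, *Hoxc4* and *Meis1* cells have no values of only a few reads (lowest 106, 107 and 98), whereas *Meis2* and *Gata6* extend from a few to over 1000 reads.

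*Gata6* was found in stromal cells only and *Gata2* in other cells only. Of all genes above 0 in at least 3 cells, 29% were found in stromal cells only and 0.409% in other cells only. With *Dcn* cut at 100, 1 cell with *Gata2* counted as stromal. *Gata6*, which is known from the heart, the vessel wall and the linings of the body cavities, was above 0 in 18 stromal cells (31%; 19.5% to 44.5%). It was above 0 in 0 of 27 other cells, which allows up to 11.1% (exact limit, 12.8%). Its reads ran from 2 through a median of 144 to 1361, and the mean log2(value + 1) was 2.29 ± 3.76 (SD over 58 cells) in stromal cells. *Gata2*, a factor of endothelial and blood-forming cells, was above 0 in 0 of 58 stromal cells, which allows up to 5.17% (exact limit, 6.16%). It was above 0 in 4 other cells (14.8%; 4.19% to 33.7%) with 62, 101, 432 and 1256 reads. Its mean log2(value + 1) was 1.17 ± 2.95 (SD over 27 cells) in the other cells. All 4 cells with *Gata2* held at least 3 endothelial markers at 100 reads, as did 24 of all 27 other cells. Of the 18 cells with *Gata6*, 1 held them, and the part of these markers in the result was not tested.

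T-box genes were found in 9 stromal cells (15.5%; 7.35% to 27.4%) and in 4 other cells (14.8%; 4.19% to 33.7%). *Tbx3*, known from limb and mammary development and from the conduction system of the heart, was the most common. It was found in 4 stromal cells (6.90%; 1.91% to 16.7%) with 2, 38, 297 and 350 reads and in 4 other cells (14.8%; 4.19% to 33.7%) with 507, 773, 1539 and 1694 reads. All other cells with *Tbx3* thus lay above all stromal cells with it, although the intervals of the shares overlap. The mean log2(value + 1) was 0.41 ± 1.68 (SD over 58 cells) in stromal and 1.48 ± 3.62 (SD over 27 cells) in other cells, a difference of -1.07. The 4 other cells with *Tbx3* held at least 3 endothelial markers at 100 reads, as did 24 of all 27 other cells. The part of these markers in the result was not tested. A single cell held both *Gata2* (432 reads) and *Tbx3* (773 reads). *Tbx2*, a close relative of *Tbx3*, was found in 2 stromal cells with 51 and 1058 reads. *Tbx18*, known from the outer layer of the heart and from pericytes, was found in 2 stromal cells with 83 and 239 reads, and *Tbx15*, known from subsets of fat and skeletal precursors, in 1 stromal cell with 276 reads.

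**Figure D4:**
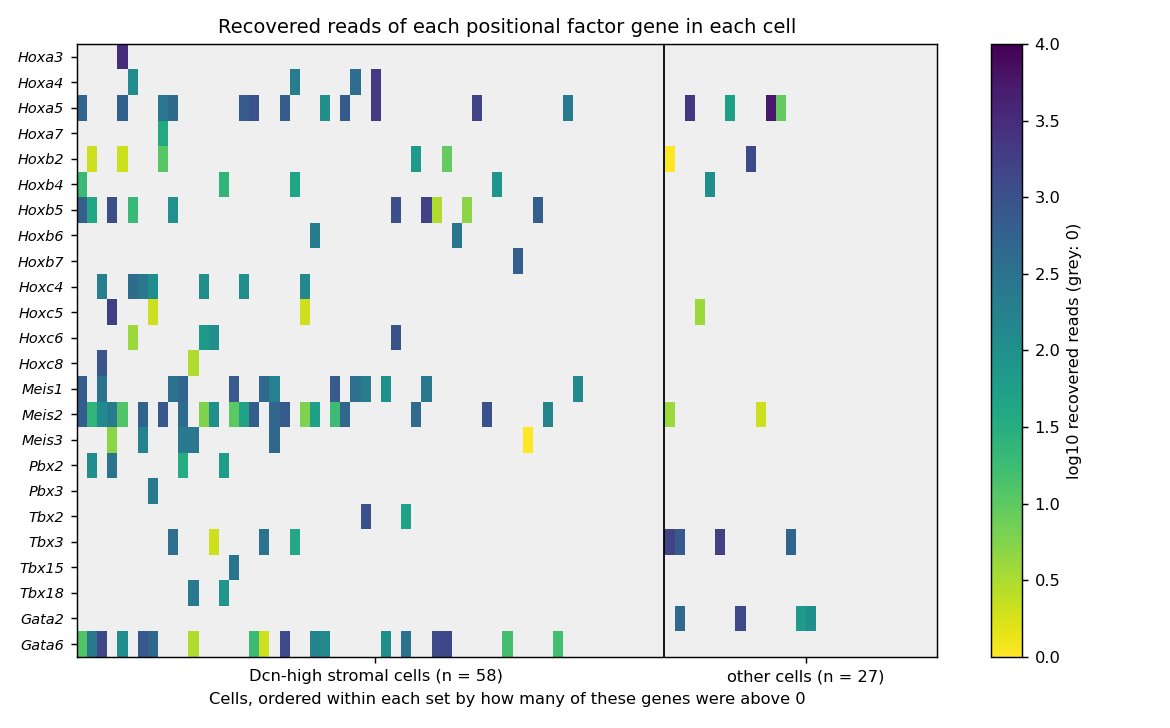
Recovered reads (log10 color scale, grey for 0) of the 24 genes (rows) in each of the 85 cells (columns), with the 58 *Dcn*-high stromal cells to the left of the line and the 27 other cells to the right, each set ordered by how many of these genes were above 0. Of the stromal cells, 50 hold at least 1 of the genes, and of the other cells 15.

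Levels were compared between genes per length, as CPM per kilobase of exon, with exon lengths of GRCm38. In the stromal cells above 0, *Hoxa5* had the highest median level of the 7 genes found in at least 10% of stromal cells, 111 (range, 25.2 to 363). *Hoxb5* followed at a median level of 46.8 (range, 0.342 to 166). *Meis3* at 19.5 (range, 0.0855 to 46.9) and *Hoxc4* at 16.3 (range, 11.6 to 44.3) had similar median levels. *Meis1* had a median level of 9.49 (range, 2.44 to 27.1), *Gata6* of 8.63 (range, 0.136 to 76.8) and *Meis2* of 3.96 (range, 0.142 to 27.6). The order of levels in cells above 0 thus differed from the order of shares, as *Meis2* and *Gata6* led by share and *Hoxa5* and *Hoxb5* by level, but the ranges overlap.

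For the comparison of stromal with other cells over the whole table, the 11478 genes with values above 0 in 3 or more cells entered, and 15 of the 24 were among them. The other 9 were left out, as 5 were above 0 in 1 cell and 4 in 2 cells. A difference of at least 1 in mean log2(value + 1) was called. Of the 15 genes, 4 were higher in stromal cells (*Meis2*, *Gata6*, *Meis1* and *Hoxb5*), and 35.6% of all genes tested were higher in stromal cells by the same rule. *Hoxb5* lost its call with a pseudocount of 10 (0.69) and with CPM of recovered reads (0.96). The median difference, stromal minus other, was 0.59 over the 15 genes and 0.64 over all genes tested. The median of these 15 genes thus lay close to that of the whole table. In the other direction, 2 were higher in other cells (*Gata2* and *Tbx3*), compared with 2.84% of all genes tested. Both calls lay close to the threshold and were lost when a pseudocount of 10 was used (-0.70 for *Gata2* and -0.77 for *Tbx3*), when CPM of recovered reads was used (-0.96 and -0.99), and when *Dcn* was cut at 100 (-0.68 and -0.60).

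By detection alone, 17 of the 24 genes were above 0 in stromal cells only, and 8 of these were among the genes tested, whereas 29% of all genes tested were found in stromal cells only. *Gata2* was the only one of the 24 found in other cells only, a pattern that 0.409% of all genes tested had. The remaining 6 were found in both, and these were *Hoxa5*, *Hoxb2*, *Hoxb4*, *Hoxc5*, *Meis2* and *Tbx3*. Every other cell that held any of the 24 genes held at least 3 endothelial markers at 100 reads, as did 24 of all 27 other cells.

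The *Meis* genes were found in similar shares of stromal cells with and without a *Hox* gene. A *Meis* gene was above 0 in 20 of the 36 stromal cells with a *Hox* gene (55.6%) and in 11 of the 22 without one (50%). In the other cells, a *Meis* gene was above 0 in 1 of 8 cells with a *Hox* gene and in 1 of 19 without one.

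Patterns of detection over the 58 stromal cells were compared by the phi coefficient, which is given as a description, since all cells come from 1 sample and differ in their number of genes above 0. The 5 patterns most like that of *Meis2* among the genes above 0 in at least 10% of stromal or of other cells were those of *Hoxc4* (0.26), *Hoxa5* (0.21), *Meis3* (0.20) and, at the same coefficient, *Gata6* and *Meis1* (0.09). All of these are weak, and their order was not stable. With at least 10 reads asked for, the coefficients were 0.07 for *Hoxc4*, 0.26 for *Hoxa5*, 0.23 for *Meis3*, 0.20 for *Gata6* and 0.13 for *Meis1*. *Gata6* and *Meis2* were above 0 together in 8 stromal cells, which are 44.4% of the cells with *Gata6* and 36.4% of those with *Meis2*. *Hoxa5* and *Meis2* shared 7 cells and *Hoxc4* and *Meis2* shared 5. *Wt1*, a factor of the mesothelium and visceral fat stroma, was found in 20 stromal cells, and it shared 13 with *Meis2* (59.1% of *Meis2* cells and 65% of *Wt1* cells; phi, 0.40) and 8 with *Hoxa5* (66.7% of *Hoxa5* cells and 40% of *Wt1* cells; phi, 0.35). These were the highest coefficients of *Wt1* with the genes compared. With the rest of them, its coefficient ran from -0.04 for *Meis1* to 0.23 for *Tbx3*, with 0.14 for *Gata6*. All 6 mesothelial markers, of which *Wt1* is one, were at 0 in the other cells. Their summed level was 0 to 5569 CPM (median, 0) in stromal cells, of which 2 held at least 3 of them at 100 reads, and the part of such cells in these values was not tested.

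Lists of related genes were followed by the same rule, under which 35.6% of all genes tested were higher in stromal cells and 2.84% in other cells, with a median difference of 0.64. Of the 38 other regional and mesenchymal transcription factors listed, 19 were tested, 12 were higher in stromal cells and 0 in other cells, with a median difference of 1.51. *Prrx1*, a homeodomain factor of mesenchyme, led with 42 stromal cells and 1 other cell (difference, 6.32), followed by *Tshz2*, a teashirt zinc finger factor, with 39 and 3 (difference, 4.27). *Osr1* was found in 23 stromal and 0 other cells (difference, 3.47), and *Prrx2* in 21 and 1 (difference, 2.92). *Prrx1*, *Tshz2* and *Osr1* were thus found in more stromal cells than any of the 24 genes, of which *Meis2* led with 22.

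Retinoic acid is a signal that controls *Hox* genes in the embryo. Of 17 genes of its pathway, 9 were tested, 2 were higher in stromal cells and 1 in other cells, with a median difference of 0.68. With a pseudocount of 10, the count higher in stromal cells was 1. *Aldh1a3*, an enzyme that makes retinoic acid, was found in 12 stromal and 0 other cells (difference, 2.18), and the receptor gene *Rarg* in 14 and 1 (difference, 1.28). The receptor genes *Rarb* and *Rxra* were found in 10 and 2 cells (difference, 0.70) and in 7 and 2 cells (difference, 0.63). *Dhrs3*, which reduces retinal and so limits the making of retinoic acid, was higher in other cells, with 32 stromal and 15 other cells above 0 (difference, -1.46).

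Polycomb and Trithorax proteins keep *Hox* genes silent or active through cell divisions. Of 22 of their genes, 13 were tested, 4 were higher in stromal cells and 0 in other cells, with a median difference of 0.56, and the count higher in stromal cells was 2 with a pseudocount of 10. Both this list and the retinoic acid list had medians close to that of all genes tested. *Cbx6*, of a Polycomb complex, was found in 26 stromal and 0 other cells (difference, 2.98), and *Kmt2a*, the Trithorax methyltransferase, in 18 and 2 (difference, 1.52). The others higher in stromal cells were *Ash2l* (difference, 1.83) and *Suz12* (difference, 1.28), which are named after their values were seen. *Kdm6b*, a demethylase that removes the Polycomb mark, was found in 26 stromal and 8 other cells (difference, 0.25), *Ezh1* in 22 and 3 (difference, 0.98) and *Rnf2* in 14 and 3 (difference, 0.51). Of 11 other TALE homeobox genes, 2 were tested and 0 were called in either direction. These were *Pknox1*, with 6 stromal and 3 other cells (difference, -0.10), and *Tgif1*, with 8 and 1 (difference, 0.68).

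The libraries were made by a method that does not mark the strand, so reads of a gene and of a transcript that overlaps it cannot be told apart over the shared bases. In the GENCODE annotation, *Tbx3* shares 115 exon bases with *Tbx3os1*, and 1 cell held both. *Hoxa7* shares 586 with *Hoxaas3*, and the only cell with *Hoxa7* held both. *Hoxb2* shares 953 bases with *Hoxb3os* and *Hoxb5* shares 100 with *Hoxb5os*, with 0 cells holding both in either pair. *Pbx2* shares 227 bases on the same strand with *Gpsm3*, and 2 of the 4 cells with *Pbx2* held both. *Meis1* shares 1029 bases on the same strand with *Gm37818*, and 1 of the 13 cells with *Meis1* held both. *Hotairm1*, a noncoding transcript of the *Hoxa* cluster, was above 0 in 6 stromal and 3 other cells.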

How the data were processed

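Single primary PV-ADSCs were sequenced with SMARTseq v4 as 1 group. Per the submitters' processing notes and the methods, reads were aligned with HISAT2 2.0.5 to mm9, followed by SAMtools 1.4, StringTie 1.3.3 and scater scaling. The program that counted reads is not given in the sources used here. The authors deposited 1 table whose unit is a signal of normalized read counts for 85 cells.

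Whole reads were recovered by dividing each value by the factor of its gene group and cell. Of the 24 genes, 19 held whole numbers as deposited, and 5 (*Gata6*, *Hoxa5*, *Hoxb5*, *Meis1* and *Meis2*) carried factors from 0.127 to 26.9. The 6127 genes above 0 in at least 10 cells held 165973 values. Wholeness was checked only in the 5404 genes placed in a gene group with factors. There, 0 values were not whole, within the larger of 6e-09 of the value and 1e-08 reads plus the rounding of the decimals. Values of genes outside these groups were rounded without this check. The recovery was tested on simulated data, but the simulated factors did not reach the highest factor of the 24 genes. Its outcome is not given here, and that test does not cover the full range of factors. Cells held 1146945 to 4776510 recovered reads (median, 2847986). Low transcripts can be missed in a single cell. Doublets were not called.

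Detection was a value above 0. Levels were means of log2(value + 1) on deposited values, called past a difference of 1, over genes above 0 in at least 3 cells. No p value was computed, since cells are not replicates. Beside a count of 0 cells, the upper limit is 3 cells of the total, and the exact limit, which is higher, is given in brackets. The genes described in full were above 0 in at least 10% of all, stromal or other cells. From each list, up to 5 genes with the largest share of cells and any called against the direction of the list were named. Some genes of the rule and lists are not reported here. The 24 genes and all lists were chosen with earlier results of these data known. Alternatives were 10 or 100 reads for detection, other *Dcn* limits, a pseudocount of 10, CPM, thinning of each cell to the lowest total, other gene filters, and leaving out 6 cells under 1000 genes. Sequences and exon lengths came from GENCODE M21 (GRCm38), another build than mm9. Python 3.11.15, numpy 2.4.6, pandas 2.3.3, scipy 1.17.1 and matplotlib 3.10.9 were used.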

Additional observations from a re-analysis of the deposited data

How the results depend on the processing

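Under 12 alternatives, 126 of 136 values moved by less than the limit set for them. With a *Dcn* limit of 5000, the same 58 cells counted as stromal, so its values could not change. Using no filter on cells repeated the main counts. The values of both settings are among the 126, which therefore overstates how many changes were put to the results. The count of genes higher in stromal cells was 3 or 4 under every alternative that gave it. The count higher in other cells was 0 instead of 2 with a pseudocount of 10, with CPM of recovered reads, with a *Dcn* limit of 100, and among genes above 0 in at least 10 cells, where *Gata2* and *Tbx3* are no longer tested. With the *Dcn* limit of 100, 60 cells counted as stromal, and the cells that moved included 1 with *Gata2* and 1 with *Tbx3*. Other cells with at least 1 *Hox* gene fell from 8 to 5 at 10 reads and to 4 at 100 reads, where the stromal cells holding both *Gata6* and *Meis2* fell from 8 to 3 and the share of all cells with *Meis2* from 28.2% to 16.5%. With a pseudocount of 10, 2 instead of 4 genes of the Polycomb and Trithorax list and 1 instead of 2 of the retinoic acid list were higher in stromal cells. *Hoxb5* fell below a difference of 1 with a pseudocount of 10 (0.69) and with CPM (0.96). Leaving out the stromal cell with at least 3 endothelial markers, an alternative chosen after seeing the data, moved no value past its limit. Stromal cells with at least 1 *Hox* gene were then 35 instead of 36. The share of all cells was 20.2% instead of 21.2% for *Gata6* and 7.14% instead of 8.24% for *Hoxc4*. Thinning each cell to the lowest total gave 27.1% instead of 28.2% of all cells with *Meis2*. For *Meis3* it gave 4.71% instead of 7.06%. *Gata6*, *Hoxa5*, *Meis1* and *Hoxb5* kept their shares, and 36 stromal and 8 other cells still held a *Hox* gene. A value of 0 in a cell can be a transcript that was missed. No paired analysis was possible because all cells belong to 1 group and no test was run.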
